A study of Mus musculus with 15 samples.

Results

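The major histocompatibility complex (MHC) class I heavy chains examined here were the 10 genes H2-K1, H2-D1, H2-Q4, H2-Q6, H2-Q7, H2-T22, H2-T23, H2-T24, H2-M3 and CD1D1, taken by symbol from an RNA-sequencing table of 24891 genes. All 10 symbols were present in the table. H2-K1 and H2-D1 are the classical (class Ia) genes of the b haplotype, and the other 8 are nonclassical (class Ib) or class I-like. The RefSeq annotation (GRCm38.p6) places 9 of them on chromosome 17, between 33996012 in H2-K1 and 37274485 in H2-M3, and Cd1d1 on chromosome 3 at 86995834 to 87012358. Several are close paralogs that may share reads, so the split of a signal between near-identical genes is uncertain.

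The libraries came from subcutaneous tumors of 105K cells, a Tsc2-/- mouse renal tumor line, grown with matrigel in the flanks of male C57BL/6J mice, 6 weeks old at injection. The cells were heterogeneous puromycin-selected pools carrying a non-targeting shRNA (sh-NC) or an shRNA against B7-H3, the checkpoint protein encoded by Cd276. Sorted material was tumor cells from dissociated tumors after magnetic removal of non-tumor cells, in groups labelled sh-NC, sh-B7-H3 (1) or, for the other shRNA against B7-H3, sh-B7-H3 (2). Bulk material was whole tumor RNA, labelled sh-NC or sh-B7-H3 (1), and bulk tumors with the other shRNA were not analysed here. Each of the 5 groups held 3 libraries, and every group shared the Tsc2-/- genotype and a wild-type host. Values are FPKM (fragment counts scaled by transcript length and library size) divided by a per-library factor, here called scaled FPKM, so levels of different genes can be set side by side per length.

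Relative depth, estimated as the most common ratio of low FPKM values to those of sorted sh-NC replicate 1 (set to 1, the deepest), spanned 0.468 to 1 among the 15 libraries, and the scaling factors 0.65 to 1.18. CD276 gave 34.0, 20.0 and 17.3 scaled FPKM in the sorted sh-NC libraries and 7.29, 14.0 and 11.5 in those labelled sh-B7-H3 (1). It gave 23.3, 25.4 and 25.7 in sorted libraries labelled sh-B7-H3 (2), and the bulk groups overlapped (20.8 to 23.5 with sh-NC, 17.8 to 24.4 with sh-B7-H3 (1)). Against sh-NC its log2 fold changes were -1.04 (SE 0.29, limma adjusted p = 0.0547), 0.12 (adjusted p = 0.775) and, in bulk, -0.07 (adjusted p = 0.709), so the target was below every control library in 1 of the 3 knockdown-labelled groups and passed the threshold in none. The group names used here are therefore only the labels. Sorted sh-B7-H3 (2) replicate 1 stood apart: the sum of 10 leukocyte markers there was 352.8 scaled FPKM, with a range of 5.84 to 12.03 over 8 sorted libraries and 338.6 to 665.2 in bulk tumors. The 7 renal epithelial markers summed to 825 to 1798 in the sorted libraries, and all 7 reached 1 scaled FPKM in every group.

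Class I heavy chains pair with beta-2 microglobulin and carry peptides, most of them made by the proteasome and moved into the endoplasmic reticulum by the TAP transporter, to the cell surface. Classical molecules are read by CD8+ T cells. Nonclassical molecules are less polymorphic and have narrower ligands, among them peptides from other class I leader sequences, N-formylated peptides and, for CD1d, lipids. Interferon-gamma is known to raise transcription of many of these genes through response elements close to their start sites.

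Promoter sequence is shown first as a description, and whether any motif bears on the levels was not tested. RefSeq promoter windows (250 bases before to 50 bases after a start site, GRCm38.p6) matched 8 of the 10 members. The windows of H2-K1, H2-D1, H2-Q4, H2-Q6 and H2-Q7 are similar in sequence, as paralogs, so their matches are not independent of one another. Searched on both strands, GAANNGAAA, a shortened form of the interferon-stimulated response element, was in 6 of 8 member windows and in 7.52% of all 32851 windows. The usual core of that element, which has 1 more A before the free bases NN, was in the windows of the other 2, H2-T22 and H2-T23, and in 3.44% of all windows, and its search was added after seeing the data. GGGATTCCC, an NF-kB site form known in class I enhancers, was in 4 of 8 and 0.353%, and the related GGGANTTCC in 1 of 8 and 1.68%. CCAAT, the Y box core, was in 8 of 8 and 37.4%, and TGACG, the X2 or cyclic AMP element core, in 6 of 8 and 20.8%. TTCNNNGAA, the interferon-gamma activated site form, was in 1 of 8 (H2-M3) and 8.3%. The printed stretches run from 130 bases before the CCAAT match on the strand of the gene that lies nearest the start site to its last base, 135 bases each, 5' to 3' on that strand, and capitals mark matches to GAANNGAAA (read here as TTTCACTTC), the usual core (in H2-T22 and H2-T23, read here from its other strand), GGGATTCCC, GGGANTTCC, CCAAT or its reverse complement, and TGACG.
H2-K1 (chr17:34000335-34000469, minus strand): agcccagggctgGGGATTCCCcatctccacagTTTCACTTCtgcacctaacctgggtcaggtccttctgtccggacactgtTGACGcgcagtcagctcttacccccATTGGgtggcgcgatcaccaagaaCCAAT
H2-D1 (chr17:35262911-35263045, plus strand): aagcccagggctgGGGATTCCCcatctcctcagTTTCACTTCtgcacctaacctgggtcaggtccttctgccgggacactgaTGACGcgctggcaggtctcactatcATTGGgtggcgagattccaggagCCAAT
H2-Q4 (chr17:35379432-35379566, plus strand): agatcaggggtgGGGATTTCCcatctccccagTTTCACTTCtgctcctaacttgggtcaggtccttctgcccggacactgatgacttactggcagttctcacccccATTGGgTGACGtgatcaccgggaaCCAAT
H2-Q6 (chr17:35424665-35424799, plus strand): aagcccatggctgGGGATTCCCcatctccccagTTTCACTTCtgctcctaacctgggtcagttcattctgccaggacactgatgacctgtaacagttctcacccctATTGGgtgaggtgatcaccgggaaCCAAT
H2-Q7 (chr17:35439009-35439143, plus strand): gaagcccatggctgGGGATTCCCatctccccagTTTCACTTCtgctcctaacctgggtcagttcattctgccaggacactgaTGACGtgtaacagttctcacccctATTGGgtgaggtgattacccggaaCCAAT
H2-T22 (chr17:36042801-36042935, minus strand): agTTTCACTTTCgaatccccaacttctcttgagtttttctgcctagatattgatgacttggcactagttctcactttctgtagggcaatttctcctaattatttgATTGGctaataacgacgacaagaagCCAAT
H2-T23 (chr17:36032749-36032883, minus strand): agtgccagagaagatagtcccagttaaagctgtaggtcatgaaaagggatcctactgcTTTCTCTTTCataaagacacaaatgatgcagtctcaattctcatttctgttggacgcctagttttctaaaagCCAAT
H2-M3 (chr17:37270068-37270202, plus strand): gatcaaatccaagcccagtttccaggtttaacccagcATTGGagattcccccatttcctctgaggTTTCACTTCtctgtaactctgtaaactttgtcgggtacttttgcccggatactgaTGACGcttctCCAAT

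The matches did not overlap one another (0 overlapping pairs). H2-K1, H2-D1, H2-Q4 and H2-Q6 shared the same layout, with 20 bases from the start of the NF-kB form to the start of the GAANNGAAA match, and H2-Q7 had 19. From that match to the reversed CCAAT there were 74 bases in H2-K1, H2-D1 and H2-Q4 and 73 in H2-Q6 and H2-Q7. H2-M3 held GAANNGAAA 65 bases before its CCAAT, against 97 or 98 in those 5 genes. H2-T22 held the usual core 128 bases and H2-T23 72 bases before the CCAAT. Neither had a match to GAANNGAAA or to either NF-kB form in these windows, which says only that those letters are not there. GENCODE M21 places 13 bases of the H2-K1 stretch, all 135 of the H2-D1 stretch and 107 of the H2-T23 stretch in annotated exons of the same genes, and the H2-Q4 stretch overlaps an exon of Gm11131. H2-T24 and CD1D1 had no entry.

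The classical genes were by far the most abundant members. In sorted sh-NC tumor cells, H2-K1 had 849 ± 92.8 scaled FPKM (SD, n = 3) and H2-D1 729 ± 13.5, and the pair held 83.2 to 86.3% of the summed level of the 10 genes. H2-Q4, H2-T23 and H2-Q7 followed at 83.3 ± 9.97, 73.9 ± 10.8 and 65.4 ± 6.60, and neighbours among these 3 overlapped. H2-T22 came next with 50.6 ± 5.22, below every H2-Q7 library. H2-M3 was at 7.97 ± 3.15, overlapping H2-Q6, and H2-T24 (0.433 ± 0.220) and CD1D1 (0.674 ± 0.177) lay under 1. H2-K1 and H2-D1 were also first and second in each of the other 4 groups, with no overlap between them or with the gene below. In the sorted libraries labelled sh-B7-H3 (1) or (2) the next place passed to H2-T23, at 268 ± 75.7 and 207 ± 28.2, without overlap with H2-Q4.

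**Figure D1:**
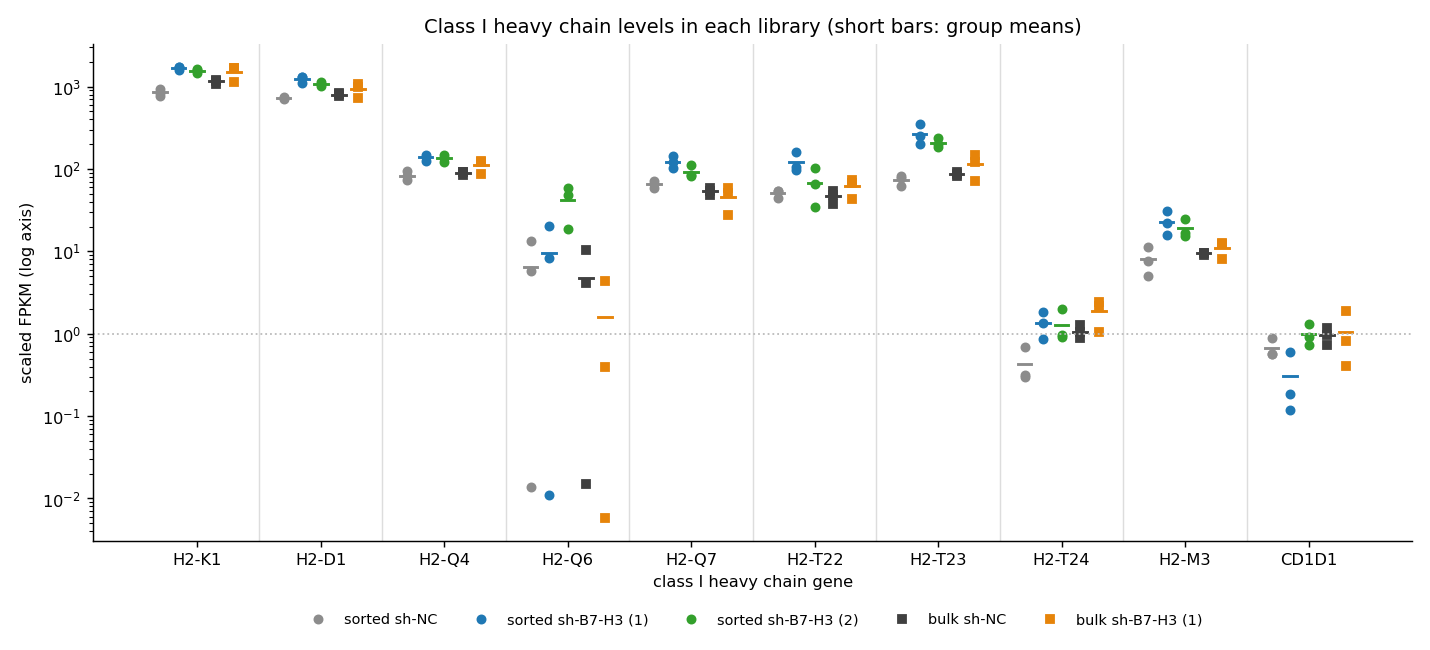
Scaled FPKM (log axis) of each class I heavy chain gene in each of the 15 libraries, coloured by group, with short bars at group means and a dotted line at 1. Sorted libraries labelled sh-B7-H3 (blue, green) lie above sorted sh-NC (grey) for H2-K1, H2-D1, H2-Q4, H2-Q7, H2-T23, H2-T24 and H2-M3, while H2-Q6 scatters from 0.00579 to 58.0 and the bulk groups overlap.

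In sorted tumor cells, 6 of 8 tested members rose in the libraries labelled with either B7-H3 shRNA, pooled, against 12.6% of the 11424 genes tested that rose (limma, adjusted p below 0.05). These counts leave out H2-T24, which lay below 1 scaled FPKM in every sh-NC library and so entered the test only through knockdown-labelled libraries, and with it they were 7 of 9. H2-T23 had the smallest adjusted p of the members and rose about 3.13-fold on the log2(scaled FPKM + 1) scale, and H2-K1 about 1.92-fold. None fell, and the median log2 fold change of the 8 was 0.84, against 0.01 over all genes tested. Libraries did not overlap for 6 of the 8, against 13.6% of all genes that lay wholly above. The 6 called genes each gave an exact two-sided permutation p of 0.0238 (6 against 3 libraries), the smallest that test gave here. That value follows from their lack of overlap and adds nothing to it. The pooled fit and this test took the 6 knockdown-labelled libraries as independent. Same-numbered libraries of the 2 shRNAs deviated together (correlations of 0.209 to 0.229), so the pooled p-values may be too small. H2-T23, H2-K1, H2-D1, H2-Q4 and H2-M3 passed in this comparison whichever library was left out. The summed level of the 10 genes was 1866 ± 82.3 scaled FPKM with sh-NC, 3605 ± 332 with sh-B7-H3 (1) and 3205 ± 222 with sh-B7-H3 (2) (SD, n = 3 each). Macrophage markers differed between the same groups, summing to 30.7 to 44.1 scaled FPKM with sh-NC and 61.5 to 94.6 in the 5 knockdown-labelled libraries other than the leukocyte-rich one, with 5 of 7 reaching 1 with sh-NC and none at 0 throughout. The 6 T cell markers summed to at most 0.0743 with sh-NC and 0.240 to 0.499 in those 5 libraries, and the 5 cytotoxic markers to 0 with sh-NC and at most 0.336. Renal epithelial markers summed to 825 to 1017 with sh-NC and 1402 to 1798 in the 6 knockdown-labelled libraries. The 6 fibroblast markers summed to 31.2 to 77.5 with sh-NC, 49.0 to 81.5 with sh-B7-H3 (1) and 113.8 to 151.8 with sh-B7-H3 (2), which lay wholly above the other groups. The part of the macrophage, T cell, renal and fibroblast markers in the results was not tested. With the mean log2 level of the 10 leukocyte markers as a covariate H2-T23 gave 1.63 (limma adjusted p = 0.000677) and H2-K1 0.93 (adjusted p = 0.00286). That covariate mostly sets the leukocyte-rich library apart, and leaving this library out instead gave 1.64 and 0.93. It therefore cannot stand for the macrophage, T cell, renal or fibroblast marker differences above.

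H2-K1, which presents peptides to CD8+ T cells, was at 945, 841 and 760 scaled FPKM in sorted sh-NC libraries. It was at 1752, 1581 and 1715 in those labelled sh-B7-H3 (1) and 1654, 1467 and 1571 in those labelled sh-B7-H3 (2), every value above every control. Its log2 fold changes were 0.99 (SE 0.20, limma adjusted p = 0.0128) and 0.89 (SE 0.20, adjusted p = 0.0195). H2-D1, the other classical gene, was at 727, 743 and 717 with sh-NC, 1295, 1121 and 1303 with sh-B7-H3 (1), and 1135, 1006 and 1088 with sh-B7-H3 (2). Those groups did not overlap either. H2-D1 rose by 0.76 (SE 0.18, adjusted p = 0.0291) with the first shRNA, and its value of 0.56 (SE 0.18, adjusted p = 0.0680) with the other did not pass. Pooling both shRNAs gave log2 fold changes of 0.94 (SE 0.14, adjusted p = 0.000708) for H2-K1 and 0.66 (SE 0.13, adjusted p = 0.00554) for H2-D1.

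H2-Q4 belongs to the Q region, whose products include the Qa-2 molecules. It gave 93.7, 82.1 and 73.9 scaled FPKM with sh-NC, 146, 127 and 140 with sh-B7-H3 (1), and 148, 121 and 135 with sh-B7-H3 (2), all above the controls. Its log2 fold changes were 0.73 (SE 0.15, limma adjusted p = 0.0135) and 0.69 (SE 0.15, adjusted p = 0.0157). H2-Q7, a Qa-2 heavy chain, gave 58.3, 66.3 and 71.4 with sh-NC, 145, 102 and 121 with sh-B7-H3 (1), and 113, 81.6 and 84.1 with sh-B7-H3 (2). It rose by 0.89 (SE 0.17, adjusted p = 0.0103) with the first shRNA, and gave 0.49 (SE 0.17, adjusted p = 0.0818) with the other despite no overlap. Both together gave 0.71 (SE 0.11, adjusted p = 0.00121) for H2-Q4 and 0.69 (SE 0.18, adjusted p = 0.0205) for H2-Q7. Without sh-NC replicate 1 or 2 the H2-Q7 value over both shRNAs did not pass (0.61, adjusted p = 0.0602, and 0.70, adjusted p = 0.0698).

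H2-T23 encodes Qa-1, which shows leader peptides of other class I molecules to CD94/NKG2 receptors. It was at 61.6, 78.7 and 81.5 scaled FPKM with sh-NC, 351, 203 and 249 with sh-B7-H3 (1), and 238, 183 and 199 with sh-B7-H3 (2). The lowest knockdown-labelled library was far above the highest control, and the log2 fold changes were 1.82 (SE 0.22, limma adjusted p = 0.00109) and 1.47 (SE 0.17, adjusted p = 0.000781). The ratio of H2-T23 to H2-K1 within a library was 0.0651 to 0.107 with sh-NC and 0.125 to 0.200 in the 6 knockdown-labelled libraries, without overlap. H2-M3, which presents N-formylated peptides, gave 5.04, 7.56 and 11.3 with sh-NC, 30.6, 15.6 and 22.1 with sh-B7-H3 (1), and 24.9, 15.5 and 16.8 with sh-B7-H3 (2). It rose by 1.42 (SE 0.30, adjusted p = 0.0177) and 1.19 (SE 0.28, adjusted p = 0.0216), with no overlap. H2-T23 and H2-M3 gave 1.64 (SE 0.20, adjusted p = 0.000185) and 1.31 (SE 0.26, adjusted p = 0.00473) over both shRNAs.

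H2-T24 stayed near the detection filter, at 0.687, 0.300 and 0.313 scaled FPKM with sh-NC. It reached 1.86, 0.874 and 1.34 with sh-B7-H3 (1) and 1.97, 0.906 and 0.968 with sh-B7-H3 (2), above every control. Only 3 sorted libraries reached 1, all of them knockdown-labelled, so the fit over both shRNAs could include H2-T24 only because it was high there, and its log2 difference of 0.68 (SE 0.18) is given as a description. Neither single-shRNA fit included it. CD1D1, the CD1d heavy chain that presents lipids to NKT cells, was at 0.569, 0.573 and 0.878 with sh-NC, 0.188, 0.604 and 0.120 with sh-B7-H3 (1), and 0.727, 0.910 and 1.31 with sh-B7-H3 (2). Both knockdown-labelled groups overlapped sh-NC, but sh-B7-H3 (1) lay wholly below sh-B7-H3 (2) (exact two-sided permutation p = 0.1, 3 against 3 libraries). CD1D1 passed no filter, and its log2 differences from sh-NC were -0.37 with sh-B7-H3 (1) and 0.24 with sh-B7-H3 (2). The exact two-sided permutation p for both shRNAs against sh-NC, over the 9 sorted libraries, was 0.857. That value pooled groups that differed in direction.

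With sh-B7-H3 (1) alone, 7 of 8 tested members rose, against 9.03% of all genes tested, and with sh-B7-H3 (2) alone 4 of 8 rose, against 11.7%. These comparisons share the sh-NC libraries. H2-T23 passed with each shRNA in every fit that left out 1 library. The counts were less steady. Without sh-NC replicate 1, 2 or 3 the first count was 7, 3 or 6 and the other 6, 2 or 4. Without sh-B7-H3 (1) replicate 1, 2 or 3 the first was 2, 4 or 2, and without sh-B7-H3 (2) replicate 1, 2 or 3 the other was 1, 3 or 1. The share of all genes that rose ran from 4.87 to 11.3% over the first 6 of these fits and from 5.57 to 18.8% over the other 6. With the leukocyte covariate H2-T23 alone passed with each shRNA (1.90, adjusted p = 0.0203, and 1.37, adjusted p = 0.00392, limma), where 4.74 and 9.7% of all genes rose. The 6 calls lost with sh-B7-H3 (1) had log2 fold changes of 0.85 for H2-K1, 0.77 for H2-D1, 0.56 for H2-Q4, 0.94 for H2-Q7, 1.19 for H2-T22 and 1.69 for H2-M3 (limma adjusted p = 0.0813 to 0.234), and SEs of 0.21 to 0.44. The 3 lost with sh-B7-H3 (2) were at 0.84 for H2-K1, 0.61 for H2-Q4 and 1.00 for H2-M3. Replicate 1 of sh-B7-H3 (2) is the leukocyte-rich library, and without it H2-K1 had a log2 fold change of 0.84 (limma adjusted p = 0.0677), H2-Q4 0.62 (adjusted p = 0.0649), H2-M3 0.99 (adjusted p = 0.0721) and H2-T23 1.37 (adjusted p = 0.00428). Over both shRNAs, leaving that library out kept H2-K1 at 0.93 (adjusted p = 0.00236), and the count was 6 of 8 tested.

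**Figure D2:**
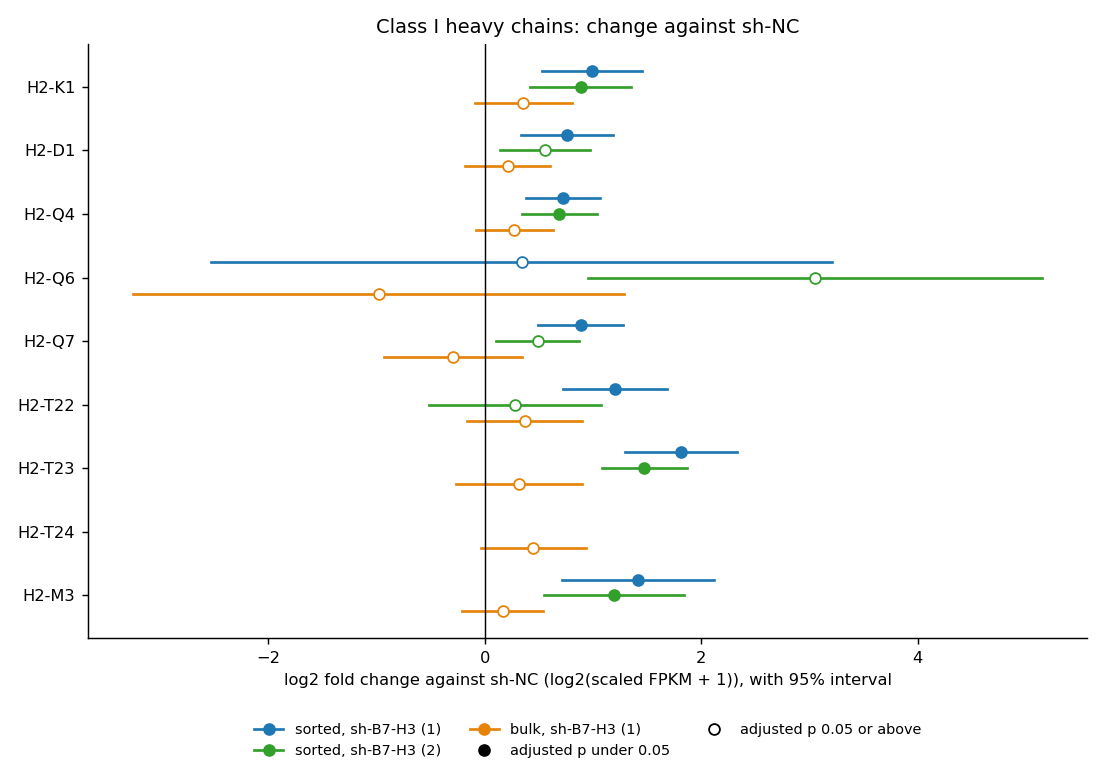
Log2 fold change against sh-NC for 9 class I heavy chain genes with 95% intervals, in sorted cells labelled sh-B7-H3 (1) (blue) or (2) (green) and in bulk tumors labelled sh-B7-H3 (1) (orange); filled points passed adjusted p 0.05. The sorted points lie right of 0, the widest intervals are those of H2-Q6, no bulk point is filled, and H2-T24 was tested in bulk alone among these fits.

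H2-Q6 and H2-T22 varied more between replicates than most members, and in several libraries each was low where a close paralog was high. H2-Q6, a further Qa-2 gene, was at 0.0137, 13.3 and 5.81 scaled FPKM with sh-NC, 20.4, 0.0110 and 8.28 with sh-B7-H3 (1), and 58.0, 18.4 and 48.3 with sh-B7-H3 (2). Its paralog H2-Q8 was at 41.1, 14.2 and 26.1, then 71.6, 66.4 and 78.6, then 24.4, 49.5 and 29.5 in the same libraries. Where H2-Q6 was near 0, H2-Q8 held almost the whole sum, and the coefficient of variation within a group was 49.6 to 152% for H2-Q6 and 6.74 to 32.9% for the sum. The sum of the pair was 41.2, 27.5 and 31.9 with sh-NC, 91.9, 66.4 and 86.9 with sh-B7-H3 (1), and 82.4, 68.0 and 77.7 with sh-B7-H3 (2), with no overlap. H2-Q6 on its own passed in none of the 3 comparisons with sh-NC, with 0.34 (SE 1.24, limma adjusted p = 0.913), 3.05 (SE 0.90, adjusted p = 0.0525) and 1.70 (SE 1.21, adjusted p = 0.375) for sh-B7-H3 (1), (2) and both. With sh-B7-H3 (2) it did pass on FPKM as deposited (3.30, adjusted p = 0.000185) and without sh-NC replicate 1 (1.96, adjusted p = 0.0313) or replicate 2 (3.87, adjusted p = 0.0296). The summed pair rose by 1.27 (SE 0.19, adjusted p = 0.00322), 1.17 (SE 0.17, adjusted p = 0.00249) and 1.22 (SE 0.15, adjusted p = 0.000203). These sums were chosen after seeing the data.

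H2-T22, a nonclassical molecule bound by a subset of gamma-delta T cells, was at 44.6, 53.4 and 53.9 scaled FPKM with sh-NC, 160, 95.9 and 105 with sh-B7-H3 (1), and 65.0, 102 and 34.9 with sh-B7-H3 (2). Its paralog H2-T9 was near 0 in several libraries and reached 64.8 and 81.2 in sh-B7-H3 (2) replicates 1 and 3. In both of these H2-T22 was lower than in replicate 2, though in replicate 1 it was still above every sh-NC library. Their sum was 44.6, 53.4 and 56.3 with sh-NC, 165, 95.9 and 117 with sh-B7-H3 (1), and 130, 102 and 116 with sh-B7-H3 (2), every knockdown-labelled value above the controls. H2-T22 alone rose by 1.20 (SE 0.21, limma adjusted p = 0.00646) with sh-B7-H3 (1), and gave 0.28 (SE 0.34, adjusted p = 0.628) with sh-B7-H3 (2) and 0.74 (SE 0.37, adjusted p = 0.202) with both. The sum rose by 1.25 (SE 0.21, adjusted p = 0.00570), 1.16 (SE 0.15, adjusted p = 0.00141) and 1.20 (SE 0.16, adjusted p = 0.000441). Whether reads were divided between the paralogs was not tested.

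**Figure D3:**
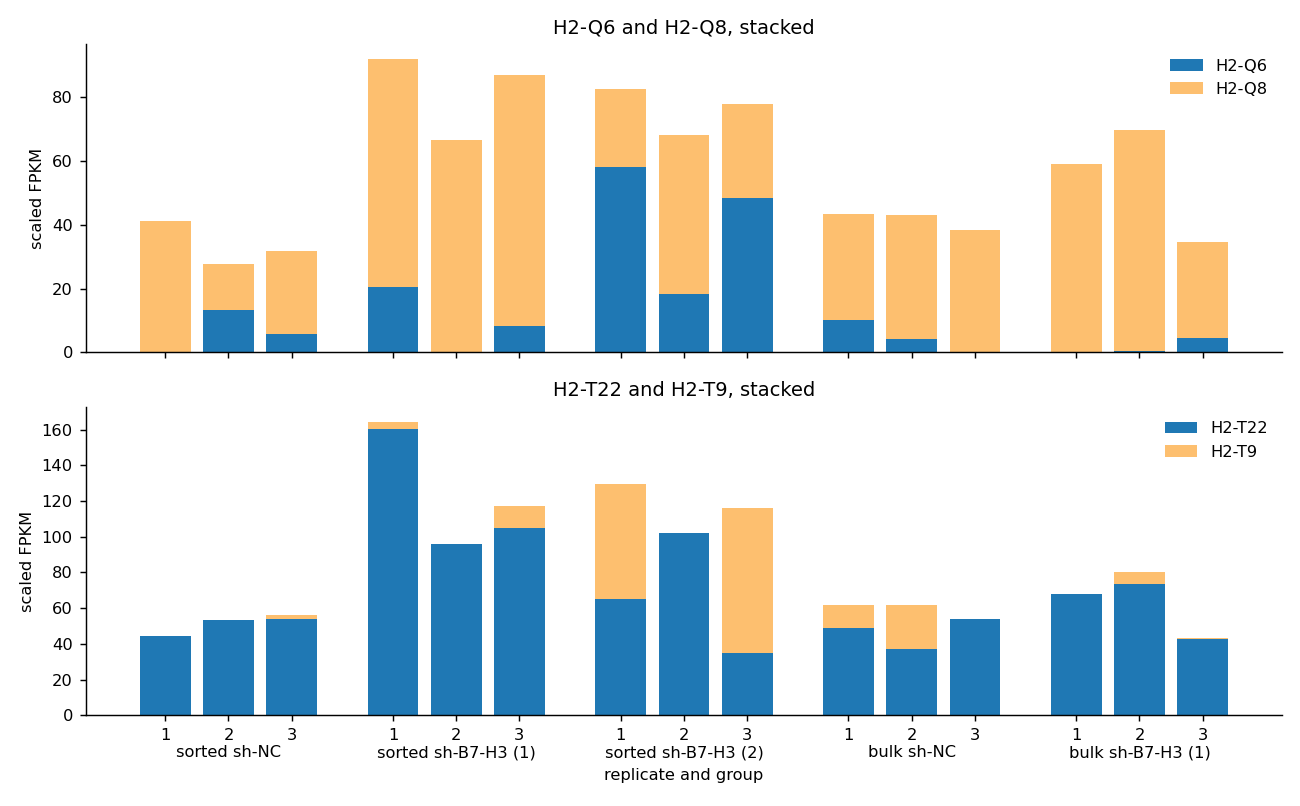
Stacked scaled FPKM of H2-Q6 with H2-Q8 (top) and of H2-T22 with H2-T9 (bottom) in each library, by group and replicate. The split within a bar changes from library to library, while the height of the sorted bars labelled sh-B7-H3 is 66.4 to 91.9 against 27.5 to 41.2 with sh-NC in the top panel and 95.9 to 165 against 44.6 to 56.3 in the bottom one.

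Between the shRNAs, no member was called (0 of 9 tested by limma, with H2-Q6 and H2-T22 at an unadjusted p of 0.0292 and 0.0376), against 3.4% of all genes called in either direction. The 95% interval of the log2 difference, sh-B7-H3 (1) less sh-B7-H3 (2), was -0.18 to 0.39 for H2-K1, -0.08 to 0.49 for H2-D1, -0.22 to 0.30 for H2-Q4 and -0.13 to 0.82 for H2-T23. Same-numbered libraries of these groups deviated together. With the replicate number as a block 2 of 9 members passed, where 1864 of 11239 genes were called in either direction. H2-Q7 was then higher with sh-B7-H3 (1) by 0.40 (SE 0.06, adjusted p = 0.0253), and H2-Q6 gave -2.71 (SE 0.52, adjusted p = 0.0347). The H2-Q6 and H2-Q8 sum differed by 0.09 (interval -0.24 to 0.43) without the block. CD276 itself was lower in libraries labelled sh-B7-H3 (1), by a log2 difference of -1.16 (SE 0.20, limma adjusted p = 0.0277).

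In bulk tumors, 0 of 9 tested members were called by limma, where 12.8% of 11800 genes rose, and none had an unadjusted p below 0.05. All 9 overlapped between groups, against 24.4% of all genes that lay wholly above the controls. In whole tumors, fewer cells of a type and less RNA per cell cannot be told apart. H2-K1 was at 1174, 1216 and 1090 scaled FPKM with sh-NC and 1683, 1706 and 1135 with sh-B7-H3 (1), a log2 fold change of 0.35 (SE 0.19, limma adjusted p = 0.205). H2-T23 was at 82.7, 92.0 and 88.1 against 121, 148 and 72.4, with 0.32 (SE 0.24, adjusted p = 0.371). H2-D1 was at 760, 835 and 806 against 1003, 1071 and 737, and H2-Q4 at 91.6, 93.0 and 85.6 against 121, 124 and 86.5.

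For most members the overlap lay in 1 library. For H2-K1, H2-D1, H2-Q4, H2-T23, H2-T24, H2-T22 and H2-M3, replicates 1 and 2 labelled sh-B7-H3 (1) lay above every bulk control and replicate 3 did not. H2-T22 was at 48.7, 37.4 and 53.7 with sh-NC and 67.9, 73.3 and 42.8 with sh-B7-H3 (1), and H2-M3 at 9.64, 9.15 and 9.54 against 12.1, 12.5 and 8.09. Replicate 3 is singled out because of these values, so a fit without it is not a separate test. It also had the lowest relative depth, 0.468. Each fit without another bulk library instead called 0 members, where 3.36 to 16.8% of all genes rose. Without replicate 3 the fit called 3 of 8 tested members, against 9.31% of the 11555 genes tested there that rose. They were H2-Q4 at 0.44 (SE 0.10, limma adjusted p = 0.0323), H2-T23 at 0.61 (SE 0.12, adjusted p = 0.0259) and H2-T24 at 0.67 (SE 0.13, adjusted p = 0.0230). H2-K1 then gave 0.55 (SE 0.16, adjusted p = 0.0701). H2-Q7 overlapped throughout, at 54.5, 47.7 and 59.3 with sh-NC and 51.1, 59.0 and 27.3 with sh-B7-H3 (1), and so did H2-Q6, at 10.26, 4.09 and 0.0151 against 0.00579, 0.395 and 4.41. CD1D1 was at 0.735, 0.978 and 1.18 against 0.811, 1.90 and 0.408. Summed leukocyte markers ran from 362.3 to 538.5 with sh-NC and 338.6 to 665.2 with sh-B7-H3 (1), T cell markers from 1.30 to 2.40 and 5.54 to 17.4, and fibroblast markers from 81.1 to 155.7 and 265.4 to 635.1. Renal epithelial markers summed to 752.5 to 849.8 with sh-NC and 993 to 1316 with sh-B7-H3 (1), cytotoxic markers to 1.57 to 1.99 and 2.72 to 9.88, and neutrophil markers to 4.59 to 9.96 and 1.08 to 2.12. T cell, fibroblast, renal and cytotoxic markers were thus wholly higher and neutrophil markers wholly lower with sh-B7-H3 (1), and the part of these markers in the values was not tested.

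The log2 fold change of sh-B7-H3 (1) against sh-NC was lower in bulk than in sorted material for all 9 tested members, but no difference was called by limma (0 of 9), against 0.464% of all genes called. Over all 12062 genes tested, 6180 had a difference above 0. Unadjusted p was below 0.05 for 6 of the 9 members, and the share of all genes below that level was not computed. H2-T23 had a bulk less sorted difference of -1.50 (95% interval -2.28 to -0.72, adjusted p = 0.106), H2-Q6 of -1.32 with a wide interval (-5.25 to 2.61), H2-M3 of -1.25 (-2.09 to -0.42, adjusted p = 0.209) and H2-Q7 of -1.18 (-1.92 to -0.44, adjusted p = 0.185). On FPKM as deposited, with no scaling factor, the H2-T23 difference was -1.66 and passed (adjusted p = 0.0377). H2-K1 and H2-D1 differed by -0.64 and -0.55, with adjusted p of 0.303 and 0.311.

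Between bulk and sorted material of sh-NC tumors, 0 of 8 tested members were called by limma, against 16.9% of all genes in either direction, and H2-K1 alone had an unadjusted p below 0.05 (0.0466). H2-K1 was 1160 ± 64.0 scaled FPKM in bulk and 849 ± 92.8 in sorted cells (SD, n = 3 each), a log2 difference of 0.45 (SE 0.19, adjusted p = 0.143), with every bulk library higher. Without sorted sh-NC replicate 1 it passed (0.53, adjusted p = 0.0339). The 10 members together summed to 2254 ± 73.2 in bulk and 1866 ± 82.3 in sorted cells (SD, n = 3 each).

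The wider class I pathway was followed through a list of 19 genes for the light chain, peptide supply and loading, and transcriptional regulators. In sorted cells 11 of 19 rose with sh-B7-H3 (1), 12 with sh-B7-H3 (2) and 12 over both, against 9.03, 11.7 and 12.6% of all genes tested. None fell, and the list's median log2 fold change over both was 1.13. IRF1, an interferon-induced activator, went from 7.09, 6.11 and 8.04 scaled FPKM with sh-NC to between 41.8 and 83.6 in the 6 knockdown-labelled libraries, by 2.87 (SE 0.21, limma adjusted p = 6.16e-06). PSMB9, an immunoproteasome subunit, rose by 2.73 (SE 0.24, adjusted p = 2.40e-05), and PSMB8, another, by 1.92 (SE 0.21, adjusted p = 9.74e-05). TAP1, the transporter subunit, rose from 21.6, 16.4 and 16.1 to between 46.8 and 72.9, by 1.68 (SE 0.15, adjusted p = 2.09e-05). NLRC5, the class I transactivator, rose by 1.13 (SE 0.17, adjusted p = 0.000845) and TAPBPL, a peptide editor, by 1.78 (SE 0.16, adjusted p = 2.40e-05). PSME1, a proteasome activator subunit, had the smallest change among genes called with each shRNA, 0.93 (SE 0.20, adjusted p = 0.00832).

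B2M, the light chain that every conventional class I molecule needs, did not pass in any sorted comparison with sh-NC. It was at 5931, 5200 and 3762 scaled FPKM with sh-NC, 6165, 6696 and 5044 with sh-B7-H3 (1), and 4933, 4646 and 3891 with sh-B7-H3 (2). Both knockdown-labelled groups overlapped sh-NC, but sh-B7-H3 (1) lay wholly above sh-B7-H3 (2). The B2M log2 fold changes were 0.28 (SE 0.31, limma adjusted p = 0.664) with sh-B7-H3 (1) and -0.13 (SE 0.33, adjusted p = 0.832) with sh-B7-H3 (2). Over both shRNAs the value was 0.08 (SE 0.24, adjusted p = 0.860). The ratio of H2-K1 to B2M was 0.159, 0.162 and 0.202 with sh-NC and 0.236 to 0.404 in the 6 knockdown-labelled libraries. Over both shRNAs the chaperones CALR, CANX and PDIA3 and the RFX5, RFXAP and RFXANK subunits gave log2 fold changes of -0.03 to 0.27, and none passed. For CALR and PDIA3 this pooled groups that did not overlap, both being wholly higher with sh-B7-H3 (1) than with sh-B7-H3 (2). PDIA3 with sh-B7-H3 (1) (0.36, limma adjusted p = 0.298) and RFXANK with sh-B7-H3 (2) (0.27, adjusted p = 0.167) lay above every sh-NC library without passing.

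**Figure D4:**
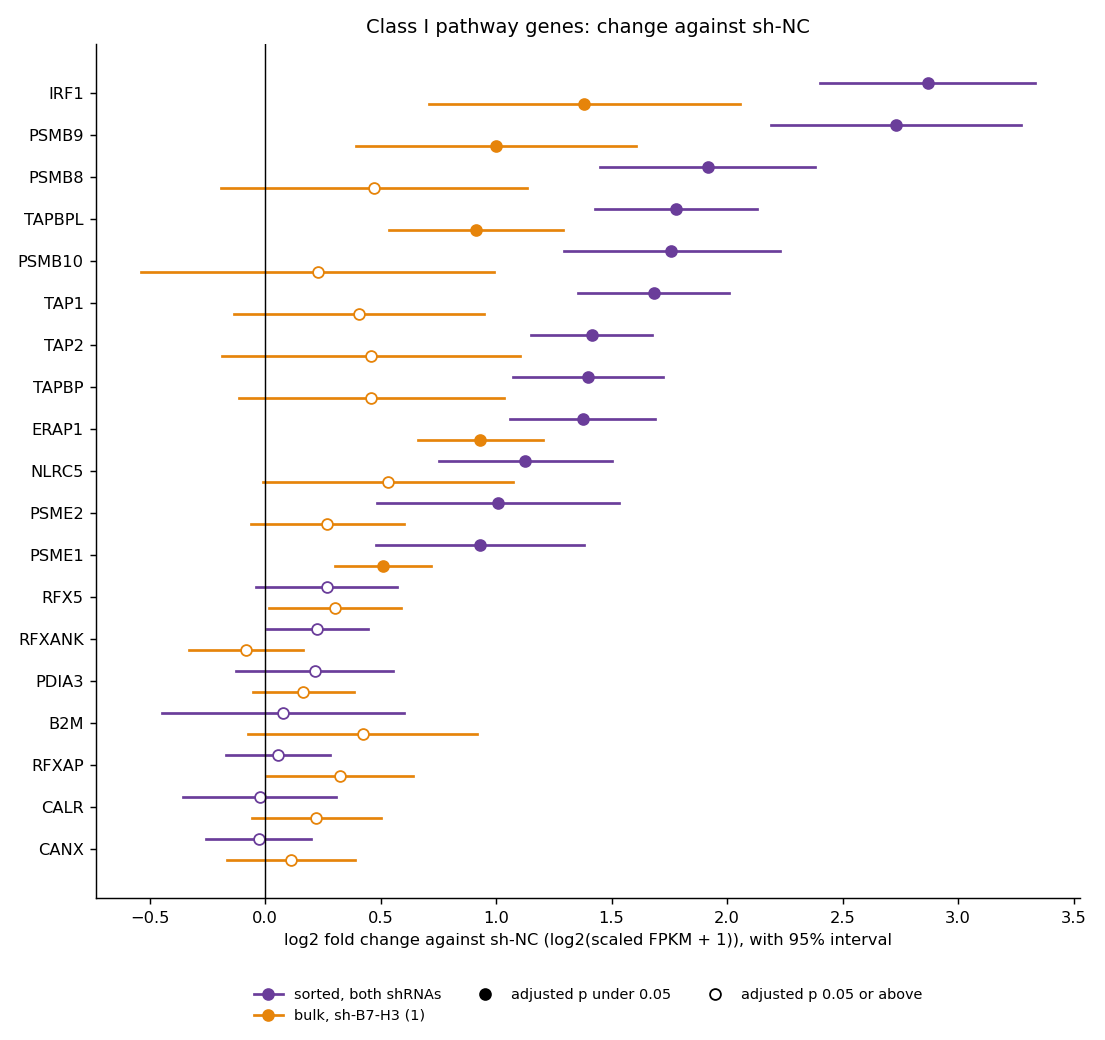
Log2 fold change against sh-NC with 95% intervals for the 19 class I pathway genes, over both shRNAs in sorted cells (purple) and for sh-B7-H3 (1) in bulk tumors (orange); filled points passed adjusted p 0.05. From IRF1 down to PSME1 the 12 purple points are filled, RFX5 to CANX are not, and 5 orange points are filled.

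In bulk tumors 5 of the 19 pathway genes rose by limma, against 12.8% of all genes tested: IRF1 by 1.38 (SE 0.29, adjusted p = 0.0193), PSMB9 by 1.00 (SE 0.26, adjusted p = 0.0357), ERAP1 by 0.93 (SE 0.11, adjusted p = 0.00440), TAPBPL by 0.91 (SE 0.16, adjusted p = 0.0114) and PSME1 by 0.51 (SE 0.09, adjusted p = 0.0110). ERAP1, a peptide-trimming enzyme, is named because it was among these 5, after its values were seen. The median of the list was 0.42, against 0.02 over all genes tested. TAP1 gave 0.41 (adjusted p = 0.224) and NLRC5 0.53 (adjusted p = 0.131).

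Among 36 other class I and class I-like genes, 32 were in the table and 17 had a mean of at least 1 scaled FPKM. Over both shRNAs in sorted cells 11 of the 17 rose, against 12.6% of all genes tested, with a median log2 fold change of 0.94. H2-Q2 rose by 2.05 (SE 0.17, limma adjusted p = 1.70e-05) and H2-Q9, a Qa-2 gene close to H2-Q7, by 1.92 (SE 0.12, adjusted p = 2.53e-06). H2-Q9 was at 32.1, 28.9 and 27.7 scaled FPKM with sh-NC and 98.9 to 139 in the 6 knockdown-labelled libraries. The other 9 were GM11127, GM7030, GM8909, H2-BL, H2-K2, H2-Q1, H2-Q5, H2-Q10 and H2-T10, with 0.66 to 1.06. H2-BL, at 0.542 to 1.24 scaled FPKM with sh-NC (median 0.626), met the filter through knockdown-labelled libraries. The 4 measured class I-like genes other than CD1D1 did not pass, and nor did H2-Q8 and H2-T9 alone. MR1, which presents vitamin B metabolites, gave -0.18, the iron regulator HFE -0.13, the protein C receptor PROCR 0.17 and the neonatal Fc receptor FCGRT a value within 0.01 of 0. These values pooled shRNA groups that did not overlap. MR1 and HFE were wholly higher, and FCGRT (4.14 to 5.05 against 7.56 to 10.04) and PROCR wholly lower, with sh-B7-H3 (1) than with sh-B7-H3 (2). Between the shRNAs, limma called 2 of the 17 higher and 1 lower with sh-B7-H3 (1), against 3.4% of all genes called. H2-Q2 and H2-Q9 were also the 2 of 17 called in bulk tumors, where 12.8% of all genes rose, by 1.31 (SE 0.17, adjusted p = 0.00463) and 0.93 (SE 0.22, adjusted p = 0.0295).

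A list of 11 receptor genes of T, NK or myeloid cells, most of them for class I molecules, was also followed. In the sorted fit over both shRNAs 1 passed the filter (LILRB4A, 0.77, limma adjusted p = 0.508), and it is not taken here as a class I receptor. That value pooled groups that differed. LILRB4A was at 4.99 to 8.71 scaled FPKM with sh-B7-H3 (2), 0.356 to 1.53 with sh-NC and 0.0842 to 0.329 with sh-B7-H3 (1). With sh-B7-H3 (2) alone its log2 difference from sh-NC was 2.07. LILRB4A met the filter through the sh-B7-H3 (2) libraries, where it was high, so this value is a description. CD8A was at most 0.0786 scaled FPKM in 8 sorted libraries and 2.23 in the leukocyte-rich one. In bulk tumors KLRD1, the CD94 chain of the receptor for Qa-1, was at 0.536, 0.859 and 0.353 scaled FPKM with sh-NC and 2.31, 2.31 and 1.69 with sh-B7-H3 (1). It entered the test only through the latter group, so these values are a description, and the other 2 receptors tested there did not pass. CD8A and KLRD1 were chosen after their values were seen.

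The genes whose standardised log2 profile over the 15 libraries lay nearest the members' mean profile were PSMB8, UBE2L6, IFI47, H2-T10 and ZBP1, with root mean square differences of 0.165, 0.208, 0.216, 0.220 and 0.222 among 11604 genes. Of the members themselves, H2-T23 (0.179), H2-D1 (0.248), H2-M3 (0.310) and H2-Q4 (0.327) lay closest to it, and H2-Q6 (1.07) farthest. These distances describe likeness of pattern over libraries that differ in material and shRNA, with the members part of the mean they were compared with.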

How the data were processed

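Poly-A RNA was sequenced from 15 libraries in 5 groups of 3, mapped by the labels. The authors ran the VIPER pipeline on single-end reads, and the submitters' processing notes name mm10. The deposited table holds FPKM values per gene symbol as the authors computed them, although its name calls them counts. No depth in reads is given, so precision rests on the spread between libraries. A second deposited table holds log2 values of 1000 genes, of which 999 matched the FPKM table to within 8.91e-08, and it was not used further. Of 24917 entries, 26 with symbols turned into dates were left out.

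Each library was then scaled by a median-ratio factor, from 9872 genes of at least 1 FPKM in every library (factors 0.65 to 1.18), because a single gene, MIR6236, took 6.01 to 79.7% of a library's summed FPKM. Genes with at least 1 scaled FPKM in 3 libraries of a fit were tested on log2(scaled FPKM + 1), which understates changes of low genes, with limma 3.58.1 (R 4.3.3; moderated test with a mean trend, Benjamini-Hochberg adjustment over all genes tested, threshold 0.05). Each comparison was fitted on its own groups. Intervals used t quantiles, and exact two-sided permutation tests were run over libraries. With 3 against 3 libraries the smallest exact p is 0.1. The fits were tested on simulated data. Promoters were RefSeq windows of GRCm38.p6, and Python 3.11.15 was used.

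Members and gene lists were chosen with earlier results of these data known. Genes named in the text were every member, the pathway genes called with each shRNA that had the 4 largest and 2 smallest changes, B2M, TAP1, NLRC5 and IRF1, other class I genes with a mean of at least 1, CD276, and the 5 genes nearest in profile. Another gene of the pathway list is not reported here and is in none of its counts. The sources used here do not say that each library is a separate mouse, so p-values measure the spread between these libraries, which may be technical. Replicate numbers paired sorted sh-B7-H3 (1) with sh-B7-H3 (2), where deviations of same-numbered libraries correlated at 0.209, 0.229 and 0.209, and no other groups. The alternatives tried were FPKM as deposited, quantile normalization, a pseudocount of 0.1, other filters, summed paralogs, a replicate block, a leukocyte covariate, a second form of the interferon-stimulated response element (chosen after seeing the data), all groups in 1 fit, and each library left out.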

Additional observations from a re-analysis of the deposited data

How the results depend on the processing

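The counts of members called moved as follows, and against sh-NC or for bulk against sorted sh-NC they hold only members called higher. With no filter on low values they were 4 for sorted sh-B7-H3 (1), 2 for sh-B7-H3 (2) and 1 for bulk against sorted sh-NC. Over all genes, 1222 of 17732, 1442 of 18035 and 1727 of 18169 were called higher in those fits. With the leukocyte covariate the member count was 1 for each single shRNA, where 529 of 11163 and 1091 of 11243 genes were called higher. On FPKM as deposited it was 7 for sh-B7-H3 (2), where 1608 of 11344 genes were called higher. For the bulk less sorted difference it was 1, where 128 of 12042 genes were called in either direction. With the replicate number as a block the member counts were 2 for sorted sh-B7-H3 (1), 1 for sh-B7-H3 (2) and 2 between the shRNAs. Over all genes, 713 of 11163 and 952 of 11243 were called higher in the first 2 fits, and 1864 of 11239 in either direction between the shRNAs. Only between the shRNAs do the numbers pair libraries, since same-numbered deviations elsewhere correlated at -0.463 to 0.382 and not in every pair. Leaving out 1 library gave 2 to 7 members for sh-B7-H3 (1), 1 to 6 for sh-B7-H3 (2), 5 to 8 for both, 0 to 3 in bulk and 0 to 1 for bulk against sorted sh-NC. The share of all genes called higher in these fits was, in the same order, 4.87 to 11.3%, 5.57 to 18.8%, 8.81 to 14%, 3.36 to 16.8% and 0.907 to 22.2%. Over both shRNAs the member count, H2-T24 included, stayed within 1.5 times of 7 under every alternative. Outside these counts, 2 bulk members were called lower by limma under an alternative. H2-Q6 was lower on FPKM as deposited (-1.04, adjusted p = 0.000971), where 286 of 11658 genes were called lower. H2-Q7 was lower with the leukocyte covariate (-0.45, adjusted p = 0.0334), where 2125 of 11800 genes were called lower.

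Of the values for single members, 30 changed sign, and none of these passed the threshold in either fit. Between the shRNAs, H2-K1 and H2-Q4 were at -0.084 and -0.077 after quantile normalization, and H2-Q6 at 0.18 with paralog groups summed and 0.094 with H2-Q8 alone added. In bulk tumors summed paralog groups gave 0.34 for H2-Q6 and 0.34 for H2-Q7, and the H2-Q6 with H2-Q8 sum 0.32. For bulk against sorted sh-NC, FPKM as deposited gave -0.0099 for H2-D1 and -0.024 for H2-Q4, and the leukocyte covariate, which nearly coincides with the material, -0.16 for H2-D1, -0.28 for H2-Q4 and 36.33 for H2-Q6. There, summed paralog groups gave 0.052 for H2-Q6, 0.052 for H2-Q7 and 0.21 for H2-T22, and the pair sums 0.32 for H2-Q6 and 0.20 for H2-T22. Leaving out 1 library moved H2-Q6 with sorted sh-B7-H3 (1) from -0.76 to 1.61 and H2-T22 with sh-B7-H3 (2) from -0.080 to 0.68. Between the shRNAs it moved H2-Q4 from -0.039 to 0.11, H2-T24 from -0.059 to 0.21 and H2-M3 from -0.0041 to 0.46. In bulk it moved H2-Q7 from -0.51 to 0.033, and for bulk against sorted sh-NC H2-Q6 from -1.35 to 0.71 and H2-T22 from -0.24 to 0.020. The cause of these changes was not tested.

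Calls over all genes moved too. With the block they fell from 1497 to 915 for sorted sh-B7-H3 (1), from 2150 to 1395 for sh-B7-H3 (2), from 2520 to 1413 in bulk and from 56 to 1 for the bulk less sorted difference, and rose from 382 to 1864 between the shRNAs. The leukocyte covariate gave 641, 1091 between the shRNAs, 4650 in bulk, 102 for the difference and 0 of 1924 for bulk against sorted sh-NC. FPKM as deposited gave 961 in bulk, 128 and 652. No filter gave 137 between the shRNAs. For the difference, a pseudocount of 0.1 gave 25, the stricter filter 13 and 1 fit of all groups 36, and for bulk against sorted sh-NC the last 2 gave 1279 and 3082. Without scaling factors, the all-gene median shifted by 0.174, 0.213 and 0.196 in the sorted comparisons with sh-NC, so values there are read relative to it.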

Other observations

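The classical genes kept unequal proportions across groups. The ratio of H2-K1 to H2-D1 within a library was 1.06 to 1.30 in sorted sh-NC, 1.32 to 1.41 with sh-B7-H3 (1) and 1.44 to 1.46 with sh-B7-H3 (2), and 1.35 to 1.55 in bulk sh-NC and 1.54 to 1.68 with sh-B7-H3 (1). The ratio of H2-K1 to B2M was 0.275 to 0.392 in bulk sh-NC, above the 0.159 to 0.202 of sorted sh-NC. No test was run on these ratios.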
